A study of Homo sapiens with 2 samples.

Results

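Claudins, other tight junction genes and EPCAM were compared between 2 lines of MCF-10A cells, a long-established line of human breast epithelium that forms no tumours. The set was chosen by gene name and held CLDN1, CLDN3, CLDN4, CLDN7, CLDN8, OCLN, EPCAM, TJP1, CGN and F11R. Of these 10 genes 9 were measured, each by 1 array feature, out of 14812 named genes in all, and F11R was not analysed here. One line stably expressed ARHGAP4 fused to EGFP (EGFP-ARHGAP4), and the other stably expressed EGFP alone (EGFP vector). ARHGAP4 is a GTPase-activating protein. Total RNA of each line was hybridised to 1 Affymetrix whole-transcript array. The promoter driving the constructs, and whether either line is a single clone or a pool, are not stated in the labels. With 1 array per group, the differences below have no replicates behind them, so neither a p-value nor an error between cultures can be given.

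Tight junctions seal the space between neighbouring epithelial cells near their apical side. Claudins span the membrane and form the paired strands that close or selectively open the paracellular path, occludin and its relatives join the strands, and cytoplasmic scaffolds such as ZO-1, encoded by TJP1, tie them to actin. EPCAM is an epithelial surface glycoprotein that binds CLDN7 directly and is known to protect claudin proteins from degradation.

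The deposited values are log2 expression values, and their median over 44629 features was 2.88 on both arrays. All differences below are EGFP-ARHGAP4 minus EGFP vector on this log2 scale. A gene was taken as past the level filter when its higher value reached 4.02, the median over all genes and both arrays, and 7685 genes passed. Their median difference was -0.10. Where a gene past the filter had several features, the features' differences had a pooled SD of 0.21, which describes agreement on the same arrays and not between cultures. ARHGAP4 itself stood at 6.68 in the EGFP-ARHGAP4 array and 4.49 in the EGFP vector array, in the direction of the labels. Levels of different genes come from different probes and are not set against each other.

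CLDN7, EPCAM, CLDN1 and OCLN were higher in the EGFP-ARHGAP4 array, by 1.51-fold to 2.33-fold, while CLDN3 differed by 0.04 and TJP1 was at -0.30. The other measured members, CLDN4, CGN and CLDN8, lay below the level filter on both arrays. Over the 9 measured members the median difference was 0.59, against -0.03 over all 14812 genes. Of the 9, 7 were above 0, against 41.6% of all genes. At least 2-fold higher and past the filter were 2 members, CLDN7 and EPCAM, where 1.002% of the genes past the filter were that much higher. None of the members was at least 2-fold lower, against 0.794% of genes. A difference of 0.5 or more past the filter was found for 4 members, against 5.15% of genes, and none was lower by 0.5, against 9.81%. The members were proposed with earlier results of these arrays known, so these shares describe them and do not test them.

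**Figure D1:**
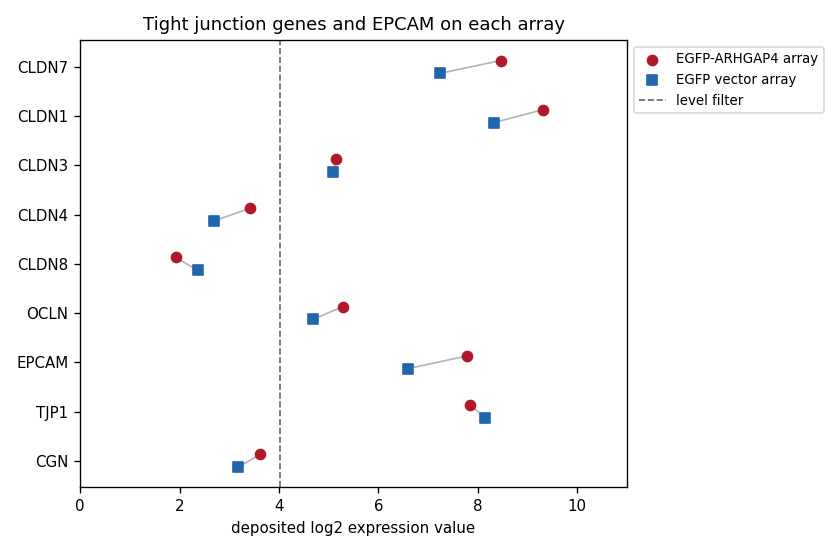
Deposited log2 expression value of the 9 measured genes on the EGFP-ARHGAP4 array (circles) and the EGFP vector array (squares), 1 array each, with the level filter at 4.02 as a dashed line. The widest gaps are those of CLDN7 and EPCAM, at 1.22 and 1.20, and the 3 genes left of the line on both arrays are CLDN4, CLDN8 and CGN.

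Among the claudins, CLDN7, a claudin of many simple epithelia and the direct partner of EPCAM, stood at 8.46 on the log2 scale in the EGFP-ARHGAP4 array, against 7.24 in the EGFP vector array. The difference of 1.22, or 2.33-fold, was reached or exceeded by 50 of the 7685 genes past the filter, 0.651% of them. CLDN1, a barrier-forming claudin without which the epidermis of mice loses water, had 9.30 in the EGFP-ARHGAP4 array and 8.33 in the EGFP vector array. Its difference of 0.97 was reached by 80 genes. As deposited it fell short of 2-fold, at 1.96-fold, and it stood at 1.07 after quantile normalization of the arrays and at 1.10 after removal of the trend with level, both past 2-fold. Both claudins were past the filter on each array and higher in the EGFP-ARHGAP4 array.

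CLDN3 and CLDN4 are neighbouring genes on chromosome 7 and encode the receptors of the Clostridium perfringens enterotoxin. CLDN3 had 5.14 in the EGFP-ARHGAP4 array and 5.10 in the EGFP vector array, a difference smaller than the 0.21 by which features of 1 gene varied. CLDN4 had 3.42 in the EGFP-ARHGAP4 array and 2.69 in the EGFP vector array. Its difference of 0.73 lay wholly below the level filter, where values approach background and a fold is not reliable. CLDN8, a claudin best known from the kidney, had 1.92 in the EGFP-ARHGAP4 array and 2.36 in the EGFP vector array, also below the filter. Of the 5 member claudins, only CLDN7 and CLDN1 were past the filter with a difference over 0.5.

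OCLN encodes occludin, a tight junction membrane protein that spans the membrane several times. It had 5.28 in the EGFP-ARHGAP4 array and 4.69 in the EGFP vector array, a difference of 0.59 that 272 genes past the filter reached or exceeded. A pseudogene, OCLNP1, lies on the same chromosome and was listed at 5.42 on both arrays. How far the OCLN feature takes up pseudogene RNA was not tested.

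EPCAM had 7.79 in the EGFP-ARHGAP4 array and 6.58 in the EGFP vector array. Its difference of 1.20, or 2.30-fold, was reached or exceeded by 53 genes, 0.690% of those past the filter. EPCAM and its binding partner CLDN7 were both higher in the EGFP-ARHGAP4 array, at 2.30-fold and 2.33-fold.

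Neither measured cytoplasmic scaffold reached 0.5. TJP1, which encodes ZO-1, had 7.85 in the EGFP-ARHGAP4 array and 8.15 in the EGFP vector array. It was the only member past the filter that was lower, and 24.5% of the genes past the filter were lower by at least as much. CGN encodes cingulin, which binds ZO-1 at the junction. It had 3.63 in the EGFP-ARHGAP4 array and 3.18 in the EGFP vector array, below the filter. The gene table lists a pseudogene each for CLDN7, on chromosome X, and for TJP1, on chromosome 16, and a share of their signal in these features was not tested.

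**Figure D2:**
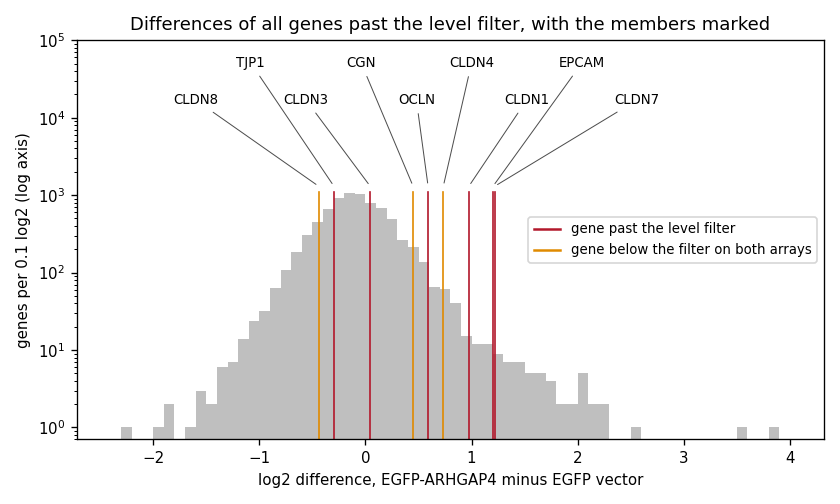
Histogram of the log2 difference, EGFP-ARHGAP4 minus EGFP vector, of the 7685 genes past the level filter (genes per 0.1 on a log axis), with vertical lines at the differences of the 9 measured members. CLDN1, EPCAM and CLDN7 lie in the right tail, where 80 genes or fewer are as high, while TJP1 and CLDN3 lie in the central mass.

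The genes nearest to CLDN7 in their 2 values, by Euclidean distance over the 2 arrays among all named genes, were XDH, DKK1 and CD70. XDH encodes xanthine dehydrogenase, a component of the secreted milk fat globule, and had 8.46 in the EGFP-ARHGAP4 array and 7.27 in the EGFP vector array. DKK1, a secreted Wnt inhibitor, had 8.49 in the EGFP-ARHGAP4 array and 7.44 in the EGFP vector array, and its 20 neighbours on chromosome 10 had a median difference of 0.38. CD70, a ligand of the tumour necrosis factor family, had 8.30 in the EGFP-ARHGAP4 array and 7.27 in the EGFP vector array. Over 2 arrays such likeness is a similarity of 2 numbers only.

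Differences of neighbouring genes were compared with those of CLDN7, EPCAM, CLDN1 and OCLN. For each, the 10 nearest named genes past the filter on either side were taken in the order of the GRCh38.p14 RefSeq gene table. The 20 neighbours of CLDN7, on chromosome 17, had a median difference of -0.08 and a highest one of 0.59, that of GABARAP, an autophagy gene named here after its value was seen. The 20 neighbours of EPCAM, on chromosome 2, had a median of -0.20 and reached 0.24 at most. Those of CLDN1, on chromosome 3, had a median of -0.19 and a highest value of 0.33. Those of OCLN, on chromosome 5, had a median of -0.26 and a highest value of 0.19. In each of these 4 neighbourhoods the member exceeded all 20 neighbours. The 4 members were taken because they were higher by at least 0.5, as were 5.15% of genes past the filter. Their standing above nearby genes was therefore likely from the choice and is not a test.

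ELP5 and CTDNEP1, on one side of CLDN7, were at -0.17 and -0.11, with CTDNEP1 at 0.01 after removal of the level trend, and on the other side EIF5A was at -0.25 and YBX2, below the filter, at 0.33. Beside EPCAM, MSH6 was at -0.39, TTC7A at -0.35 and MCFD2 at -0.05, or 0.03 after removal of the level trend, and the microRNA gene MIR559, below the filter, was at 0.22. Beside CLDN1, P3H2 was at -0.46 and IL1RAP at -0.36, while CLDN16 at 0.23 and TMEM207 at 0.00 lay below the filter. The 4 closest neighbours of CLDN4 were all above 0: ABHD11, METTL27 and TMEM270 were at 0.41, 0.42 and 0.46, all below the filter as CLDN4 was, and CLDN3 was at 0.04. MARVELD2, which encodes tricellulin, an occludin relative of junctions where 3 cells meet, is next to OCLN. It stood at 6.21 in the EGFP-ARHGAP4 array and 6.50 in the EGFP vector array, opposite in sign to OCLN, as was RAD17 at -0.47, while SERF1A was at 0.19.

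**Figure D3:**
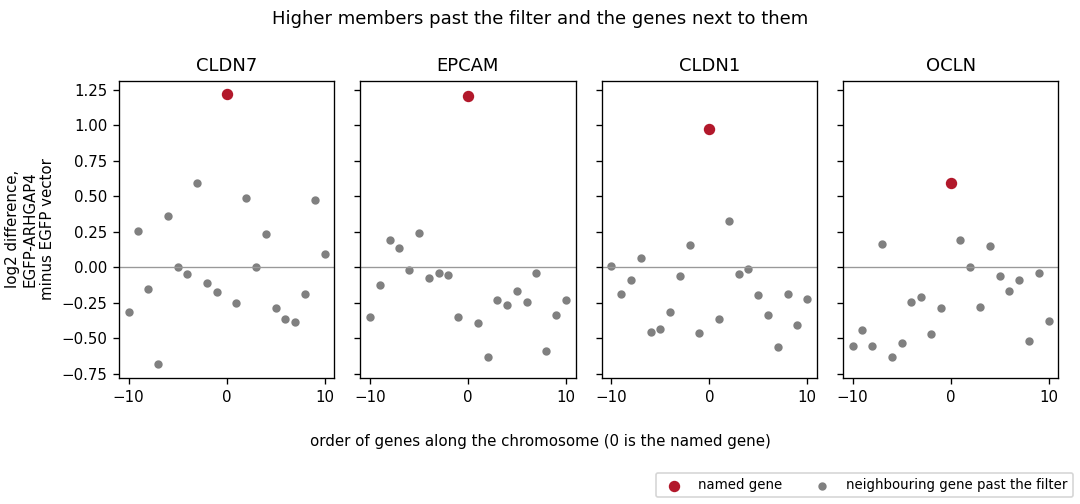
Log2 difference, EGFP-ARHGAP4 minus EGFP vector, of CLDN7, EPCAM, CLDN1 and OCLN (large points) and of the 10 nearest named genes past the level filter on either side (small points), against gene order along the chromosome. Each member lies above all of its 20 neighbours, whose medians run between -0.26 and -0.08.

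Sequence just before the start sites is shown for CLDN7, CLDN1 and OCLN, members past the filter with a difference over 0.5, because Snail and ZEB repressors of epithelial genes act through E-boxes there. RefSeq windows of 250 bases before each start site (GRCh38.p14) were held for 7 of the 10 members, all but EPCAM, CLDN8 and F11R, and made 12 windows in all. They were searched on both strands for the E-box CAGGTG, whose other strand reads CACCTG, for the Grainyhead motif AACCGGTT and for the GC box GGGCGG; the motifs do not overlap one another in these windows. The motifs were chosen with the sequences and differences known. Windows are printed for CLDN7 at its upstream start (chr17:7263214-7263463, minus strand) and its downstream start (chr17:7262479-7262728, minus strand), for CLDN1 (chr3:190322447-190322696, minus strand) and for the upstream start of OCLN (chr5:69492297-69492546, plus strand). Each reads 5′ to 3′ and ends at the base before the start, and capitals mark the E-box on either strand.
CLDN7 upstream start: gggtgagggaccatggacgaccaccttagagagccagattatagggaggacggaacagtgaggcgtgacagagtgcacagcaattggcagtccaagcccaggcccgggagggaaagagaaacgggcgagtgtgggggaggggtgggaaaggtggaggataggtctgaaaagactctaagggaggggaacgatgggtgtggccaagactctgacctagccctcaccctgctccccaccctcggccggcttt
CLDN7 downstream start: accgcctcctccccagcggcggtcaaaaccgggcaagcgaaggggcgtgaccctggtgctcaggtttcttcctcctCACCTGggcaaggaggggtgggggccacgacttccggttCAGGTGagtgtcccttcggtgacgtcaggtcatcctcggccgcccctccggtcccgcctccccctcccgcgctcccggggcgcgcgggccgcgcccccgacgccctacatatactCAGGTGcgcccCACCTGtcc
CLDN1: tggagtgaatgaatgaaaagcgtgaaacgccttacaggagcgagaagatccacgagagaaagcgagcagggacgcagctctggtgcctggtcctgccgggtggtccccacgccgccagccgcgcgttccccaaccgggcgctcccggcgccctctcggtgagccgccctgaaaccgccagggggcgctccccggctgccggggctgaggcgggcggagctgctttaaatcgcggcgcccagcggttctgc
OCLN upstream start: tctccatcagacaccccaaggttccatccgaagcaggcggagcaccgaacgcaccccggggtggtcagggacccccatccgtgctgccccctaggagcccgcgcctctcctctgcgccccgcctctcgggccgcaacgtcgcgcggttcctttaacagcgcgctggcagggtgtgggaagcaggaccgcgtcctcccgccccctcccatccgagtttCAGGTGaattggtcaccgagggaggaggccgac

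The window before the downstream CLDN7 start held 4 E-boxes, the first bases of which lie 174, 135, 20 and 9 bases before the start. At least 1 E-box was found in 17.5% of all 35116 RefSeq windows of this length, and 4 or more in 43 of them, 0.122%. G and C made up 71.2% of this CLDN7 window, against a mean of 57.2% over all windows. The shares were not matched for this. The upstream CLDN7 window and the CLDN1 window held none, and each OCLN window held 1, at 33 bases before the upstream start and 133 bases before the other. TJP1, which was not higher, had 1 E-box in 1 of its 4 windows, and the windows of CLDN3, CLDN4 and CGN had none. The Grainyhead motif was in none of the 12 windows and in 0.117% of all windows. The GC box was in 42.6% of all windows. The CLDN1 window held 2, the CGN window 5, the CLDN3 window 4 and the CLDN4 window 1. The TJP1 windows held between 0 and 3, and the CLDN7 and OCLN windows 0 or 1. A match describes the letters alone, and which start site is used in these cells was not tested.

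Of the regulators known to act on claudin and EPCAM genes, 17 of 19 listed were measured and 11 passed the filter, with a median difference over the 17 of -0.08. Of the 11, 5 were above 0 and 6 below. Higher by 0.5 were 3 of them, GRHL3, EHF and KLF4, against 5.15% of genes, and 0 were lower by 0.5, against 9.81%. Among the 7685 genes past the filter, 2818 were above 0 and 4719 below. The list mixes repressors such as Snail and ZEB with other factors, so its median gives no common direction. GRHL3, a Grainyhead transcription factor of epithelial barrier genes, stood at 4.68 in the EGFP-ARHGAP4 array and 3.94 in the EGFP vector array, the second value below the filter. EHF, an epithelial ETS factor, stood at 5.66 in the EGFP-ARHGAP4 array and 4.94 in the EGFP vector array. KLF4, a barrier transcription factor of epidermis, stood at 4.71 in the EGFP-ARHGAP4 array and 4.21 in the EGFP vector array, 1.42-fold higher. EHF and KLF4 were past the filter on both arrays, while GRHL3 passed it through the EGFP-ARHGAP4 array alone.

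The Snail and ZEB repressors were not higher. SNAI2, which encodes Slug, stood at 9.87 in the EGFP-ARHGAP4 array and 10.11 in the EGFP vector array, and SNAI1, which encodes Snail, at 4.08 in the EGFP-ARHGAP4 array and 4.27 in the EGFP vector array. Of the genes past the filter, 31.1% were lower by at least as much as SNAI2 and 38.0% by at least as much as SNAI1. ZEB2 was at 2.47 in the EGFP-ARHGAP4 array and 2.56 in the EGFP vector array, below the filter on both. ZEB1 was at 3.09 in the EGFP-ARHGAP4 array and 3.88 in the EGFP vector array, also below the filter on both. ZEB1 lies on chromosome 10 among genes that were lower as a group, its 20 neighbours having a median difference of -0.88, and the part of that region in its value was not tested. The values of SNAI1, SNAI2, ZEB1 and ZEB2 are given after they were seen, and a link between these repressors and the members was not tested.

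Tight junction genes outside the set centred on 0 when those below the filter were counted too. Of 69 listed, 55 were measured and 27 passed the filter. The 55 had a median difference of 0.00, with 26 above 0 and 27 below. Of the 27 past the filter, 18 were above 0 and 8 below. Among the 7685 genes past the filter 2818 were above 0 and 4719 below, so the 27 leaned upward beside them. Past the filter none was higher by 0.5, against 5.15% of genes, and 2 of 27 were lower by 0.5, against 9.81%, shares near the background. The lower ones were PARD3, a polarity scaffold, with 4.79 in the EGFP-ARHGAP4 array and 5.72 in the EGFP vector array, and MPDZ, a scaffold with many PDZ domains, with 4.65 in the EGFP-ARHGAP4 array and 5.25 in the EGFP vector array. PARD3 is also on chromosome 10, and its 20 neighbours had a median of -0.77.

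Of the 21 other claudins and claudin-like genes all were measured, but only CLDN9, CLDN19 and CLDN5 passed the filter, at differences of 0.23, 0.06 and 0.02. The 21 had a median of -0.05 and ranged from -0.33 to 0.57. The 5 occludin relatives and angulins had a median of 0.34, and 3 of them passed the filter. MARVELD3, an occludin relative, was at 0.35. LSR, an angulin of tricellular junctions, stood at 8.97 in the EGFP-ARHGAP4 array and 8.63 in the EGFP vector array. MARVELD2 was lower, as given above. Of the junctional adhesion molecules and related genes 6 were measured, with a median of -0.04. CRB3, an apical polarity protein, was at 0.27, VSIG1 at 0.20 and TMEM47 at 0.18, while JAM2, JAM3 and ESAM, named after their values were seen, were at -0.27, -0.25 and -0.31 and below the filter. The 9 measured scaffolds had a median of -0.02, and the 14 measured polarity and junction regulators a median of 0.08, with PARD6B, a partner of atypical protein kinase C, at 0.45, named after its value was seen.

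Genes whose proteins bind or process EPCAM were listed separately. Of 17 listed, 12 were measured, with a median difference of -0.14 and a range from -0.47 to 0.18. None differed by 0.5. Of the 12, 11 passed the filter, and past it 5.15% of all genes were higher by 0.5 and 9.81% lower. In so short a list a count of 0 is near these shares. The furthest were LEF1, a transcription factor that joins the released EPCAM tail in the nucleus, at -0.47, and PSEN2, a presenilin of the protease that releases this tail, at -0.27. LEF1 passed the filter through the EGFP vector array alone, at 4.24, against 3.78 in the EGFP-ARHGAP4 array. ST14, which encodes matriptase, a protease that cleaves EPCAM, was at 0.18 and was named after its value was seen. Of 17 listed adherens junction genes 6 were measured, with a median of 0.03. JUP, plakoglobin, stood at 8.71 in the EGFP-ARHGAP4 array and 8.43 in the EGFP vector array, and the nectin gene NECTIN3 at 4.47 in the EGFP-ARHGAP4 array and 4.79 in the EGFP vector array.

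**Figure D4:**
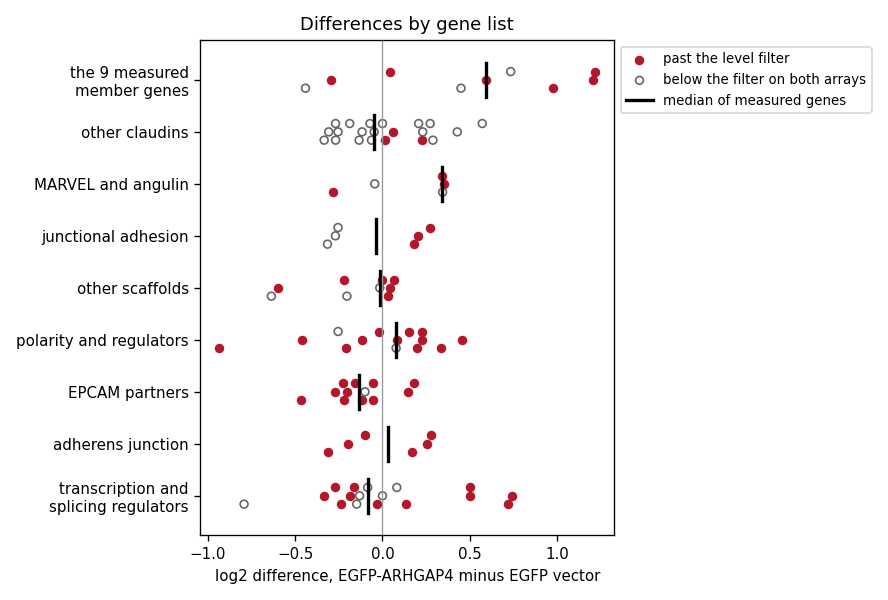
Log2 difference, EGFP-ARHGAP4 minus EGFP vector, of every measured gene in 9 lists, with filled points for genes past the level filter, open points for genes below it on both arrays and a black bar at each list's median. The member genes have a median of 0.59, and the medians of the other lists lie between -0.14 and 0.34.

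The epithelial label was checked against marker genes. Of 12 listed mammary epithelial markers 7 were measured, and all 7 were past the filter on both arrays, between 4.71 and 10.41 in the EGFP-ARHGAP4 array and between 5.06 and 10.39 in the EGFP vector array. Their summed linear level was 2805 in the EGFP-ARHGAP4 array and 3162 in the EGFP vector array. Of the 7, 5 were above 0, where 2818 of the 7685 genes past the filter were. KRT14, a basal keratin, was the lowest at -2.25, and no other gene past the filter was as low. Without KRT14 the sums were 2680 in the EGFP-ARHGAP4 array and 2569 in the EGFP vector array. GATA3, a luminal transcription factor on chromosome 10, was at -0.66 with a neighbour median of -0.83. The measured fibroblast and adipocyte markers, 3 of 8 and 4 of 6, were below the filter on both arrays, with summed levels of 22.5 and 21.5 in the EGFP-ARHGAP4 array, against 23.0 and 25.3 in the EGFP vector array. Of 8 endothelial markers 4 were measured, at a summed level of 46.9 in the EGFP-ARHGAP4 array and 47.7 in the EGFP vector array, and CLDN5 alone passed the filter. Of 8 immune markers 3 were measured, at a summed level of 270.4 in the EGFP-ARHGAP4 array and 220.3 in the EGFP vector array. CD68 and CD14 were past the filter on both arrays, with differences of 0.48 and -0.35. CD68 stood at 7.80 in the EGFP-ARHGAP4 array and 7.32 in the EGFP vector array, so the immune list was not low throughout. The part of other cells in the differences of the members was not tested.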

How the data were processed

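Total RNA of 2 MCF-10A lines was extracted, amplified with a whole-transcript kit, labelled with biotin and hybridised to 1 array each, per the labels' protocols. The authors deposited 1 normalized log2 value per feature; for the software, normalization and build, the sources used here give nothing. The log2 scale is read from the values, whose maximum of 12.8 exceeds the natural log of a 16-bit reading, 11.1. Groups came from the labelled genotype.

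Names came from the 2020 platform annotation, which gave 1 symbol to 15835 features, several to 0 and none to 28794. All 15835 matched the GRCh38.p14 RefSeq gene table by gene identifier. Features of 1 gene were averaged. Differences were called at 1 (2-fold) and described at 0.5, without a test. Arrays have no read depth, and their number limits the precision.

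Members and lists were chosen with earlier results of these arrays known. Named were all measured members, ARHGAP4, up to 4 genes at 0.5 or more past the filter from each other list (otherwise its 2 furthest), the 3 genes nearest to CLDN7 and 2 neighbours on either side of members at 0.5. Alternatives were quantile normalization, centring, loess (span 0.3), the highest feature, no level filter and a filter at the 0.75 quantile. Tools were statsmodels 0.14.6, matplotlib 3.10.9, pandas 2.3.3 and numpy 2.4.6 under Python 3.11.15, and the scalings were tested on simulated data.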

Additional observations from a re-analysis of the deposited data

How the results depend on the processing

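The differences of all 9 measured members kept their sign under quantile normalization, centring, loess and the highest feature: CLDN7 ranged between 1.22 and 1.34, EPCAM between 1.20 and 1.32, CLDN1 between 0.97 and 1.10, OCLN between 0.59 and 0.66 and TJP1 between -0.30 and -0.18. Under quantile normalization and loess CLDN1 passed 2-fold, giving 3 members instead of 2. Of 52 named genes, 2 changed sign in these settings, CTDNEP1 and MCFD2, both close to 0. With the filter at the 0.75 quantile OCLN no longer passed and the median, then over fewer members, was 1.09. Of the other tight junction genes, 1 was higher by 0.5 under quantile normalization and under loess (PARD6B), and 1 without a filter (CLDN14, below it); 0 were lower by 0.5 with the filter at the 0.75 quantile, which MPDZ and PARD3 did not pass. Of genes at 2-fold past the filter, 55.8% were higher as deposited, 67.2% after quantile normalization and 68.4% after loess. Centring changed no value, because the median difference of all features was 0. The highest feature could change no member, because each was measured by 1 feature. No paired analysis was possible because each group had 1 array. Without replicates, variation between cultures is unknown, and values below the filter cannot be read as folds.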

Other observations

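Among the tight junction and regulator genes, TJAP1, a tight junction scaffold, TMEM235, a claudin-like gene, and TWIST1, a transcription factor of mesenchymal cells, were listed at the same value to the last digit on both arrays, at 5.50, 3.98 and 3.35. OCLNP1 and TMEM207, next to OCLN and CLDN1, were listed so too. Such features made up 6.96% of all, 3106 of 44629. All 9 measured members had different values on the 2 arrays.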
